A study of Drosophila melanogaster with 12 samples.

Results

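The tetraspanin genes described here are the 31 genes whose symbol in the platform's probe annotation starts with Tsp and a digit, on a probe set that names a single gene, with Tsp2A left out. They are 31 of 11982 genes named by the array, and each has 1 such probe set among the 18769 tested. A RefSeq gene table lists 34 symbols of this form. Besides Tsp2A, Tsp42Eb and Tsp66A are missing from the members, because the 4 probe sets that carry their symbols also carry other genes. Of the members, 16 belong to a run of neighbouring genes named Tsp42E, and 15 lie elsewhere.

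Tetraspanins are small proteins that cross the membrane several times and have a short and a long loop outside the cell, the long one holding a conserved cysteine motif. They bind to each other and to partners such as integrins and membrane proteases, and gather them into patches of the cell surface, endosomes and released vesicles. In the fly midgut, where absorptive enterocytes form a single sheet of cells, the tetraspanin Tsp2A is known as a component of the smooth septate junction that seals the space between cells. Other fly members are known from the eye, from motor nerve endings and from the delivery of a protease that cuts Notch.

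Signals came from Affymetrix 3' expression arrays of adult female Drosophila melanogaster of the w1118 genotype, a white-eyed laboratory strain. All flies grew up on cornmeal food and spent their first 10 adult days at 25 °C on holidic food, a diet made from defined chemicals. It was unmodified in 2 of the 4 groups and enriched with glucose (100 g/L) in the others. Each sample pooled 5 whole flies or 10 dissected midguts, and each combination of tissue and diet had 3 samples. Nothing says whether these came from separate cultures, so a p-value measures the spread among the samples at hand, which may be technical, and precision is limited by how few arrays there are. Values are log2 signals of a probe set. A level is read only against the same gene in other samples, since probe sets differ in how strongly they bind.

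Array medians lay between 3.43 and 3.47 in midgut and between 4.04 and 4.15 in whole fly. Of the 10 enterocyte markers, 8 were measured, and all 8 were higher in midgut than in whole fly on each diet, while all 7 measured oocyte and germline genes of the 8 listed were lower. The tissue labels therefore match their markers. The midgut samples numbered 1 carried more germline RNA than their partners. The mean of the germline list was 3.44 in unmodified sample 1, against 2.20 and 2.52 in the other two. It was 4.97 in glucose sample 1, against 2.90 and 2.57. Among whole flies, unmodified sample 2 had the lowest signal of its group for 19 of the 31 tetraspanins, where 31.7% of all probe sets had theirs in that sample. Glucose sample 2 was the lowest of its group for 17 (33.2% of all probe sets), and midgut glucose sample 3 the highest of its group for 18 (33.5%). In whole-fly unmodified sample 2 the enterocyte mean was 10.10 against 10.82 and 10.77. Several results that rest on the midgut samples numbered 1 or on whole-fly unmodified sample 2 are given with and without them, and leaving out each other library was also tried.

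**Figure D1:**
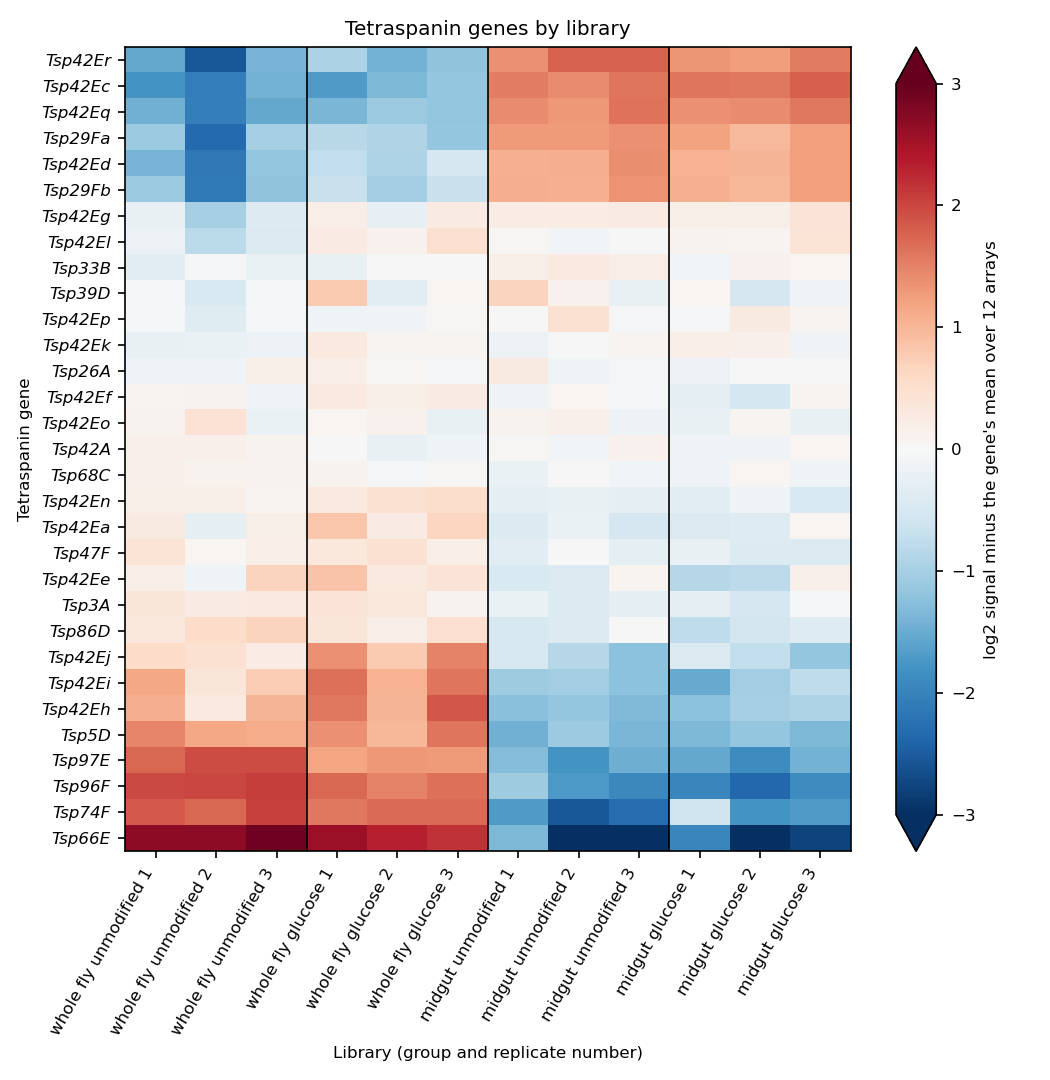
Heat map of the 31 tetraspanin genes (rows) in the 12 libraries (columns), coloured by log2 signal minus the gene's own mean over the 12 arrays and ordered by the difference between midgut and whole fly on the unmodified diet; colours stop at 3 in either direction. The upper 6 genes are higher in all 6 midgut libraries than in any whole-fly library, and the lowest 8 rows, from Tsp42Ej to Tsp66E, show the opposite.

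The comparison of midgut with whole fly shows which family members gave a stronger signal in the gut than in the animal as a whole. Tsp42Er, Tsp42Ec, Tsp42Eq, Tsp29Fa, Tsp42Ed and Tsp29Fb were higher in midgut, by 6.26-fold to 11.1-fold on the unmodified diet and by 3.53-fold to 8.31-fold on glucose. Without whole-fly unmodified sample 2 their log2 differences on the unmodified diet ran from 2.33 for Tsp29Fb to 3.12 for Tsp42Ec. Each was still called. Tsp66E, Tsp74F, Tsp96F, Tsp97E, Tsp5D, Tsp42Eh and Tsp42Ei were lower, by log2 differences from -5.27 to -1.87 on the unmodified diet and from -4.95 to -2.54 on glucose. A whole fly includes its midgut, so these are differences between a part and the whole. In bulk tissue, fewer cells of a type and less RNA per cell cannot be told apart. Malpighian tubules leave the gut at the end of the midgut, and 3 of the 5 listed tubule markers were measured. On the unmodified diet Smvt (mean 10.95 against 4.76 in whole fly) and Irk2 (9.46 against 7.10) were called higher in midgut. The third, Best2, was called lower (-2.28). The list mean of 8.82 to 9.05, against 6.51 to 7.26 in whole fly, leans on Smvt and gives no amount of tubule tissue. Muscle, neuron and hemocyte markers were mostly lower in midgut on that diet, 5 of 6, 5 of 5 and 6 of 7 being called, with list means of 7.02 to 7.42, 3.86 to 3.97 and 3.96 to 4.54 against 8.74 to 9.14, 5.25 to 5.70 and 5.57 to 6.32. The part of these cell types in the tetraspanin differences was not tested.

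A gene was called when its limma p, adjusted by Benjamini-Hochberg over all 18769 probe sets, was under 0.05. On the unmodified diet 9 of 31 members were called higher in midgut and 12 lower, that is 29.0% and 38.7%, against 14.9% and 40.6% of all probe sets. On the glucose diet 6 were called higher and 15 lower, or 19.4% and 48.4%, against 11.8% and 41.2%. On both diets alike, 6 were higher and 12 lower, against 10.2% and 37.1% of all probe sets, so the share of lower members lay near that of the array. The median difference of the members was -0.11 on the unmodified diet and -0.36 on glucose, against -0.14 and -0.17 for all probe sets.

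These counts depend on how arrays of different tissues are scaled. Centring each array on its median moved the median difference of all probe sets by 0.61 on the unmodified diet and 0.68 on glucose. On the unmodified diet 17 members were then called higher and 8 lower, beside 59.1% and 26.4% of all probe sets, and on glucose 15 and 8, beside 60.3% and 22.8%. Quantile normalization moved that median by 0.20 and 0.24. It gave 15 higher and 7 lower on the unmodified diet, beside 30.8% and 26% of all probe sets, and 12 and 10 on glucose, beside 28.9% and 24%. The 6 higher genes named above and the 7 lower ones were called in the same direction on both diets under all 3 scalings, for 19.4% and 22.6% of the members and 10.2% and 17.5% of all probe sets. Smaller tissue differences are given for the values as deposited, and the other scalings can change their call or direction.

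Of the 6 midgut-high genes, Tsp29Fa and Tsp29Fb lie outside the Tsp42E run. In the whole-fly samples Tsp29Fa read 9.69, 8.46 and 9.81 on the unmodified diet and 9.96, 9.90 and 9.64 on glucose. In the midguts it read 12.07, 12.08 and 12.16 on the unmodified diet and 11.99, 11.78 and 12.04 on glucose. The midgut libraries thus sit above all whole-fly libraries, of which unmodified sample 2 is the lowest. The log2 difference, midgut minus whole fly here and below, was 2.79 (SE 0.27, limma adjusted p 1.2e-06) on the unmodified diet and 2.10 (SE 0.27) on glucose. Tsp29Fb read 9.77, 8.76 and 9.68 in whole flies on the unmodified diet and 10.22, 9.83 and 10.22 on glucose, against 11.97, 11.95 and 12.24 (unmodified) and 11.95, 11.88 and 12.12 (glucose) in midgut. Its midgut samples also lay above all whole-fly samples, and unmodified sample 2 was again the lowest, with differences of 2.65 (SE 0.22) and 1.89 (SE 0.22). Its probe set, like those of Tsp42Ea, Tsp42Eh, Tsp66E and Tsp74F, is of a type (s_at) that can match several transcripts.

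The other 4 midgut-high genes belong to the Tsp42E run. With all samples, Tsp42Er had the largest positive difference of the family on the unmodified diet. This rank rested on the whole-fly unmodified sample in which Tsp42Er read 6.03. Without that sample the differences were 3.118 for Tsp42Er and 3.119 for Tsp42Ec. The whole-fly samples of Tsp42Er read 7.04, 6.03 and 7.17 on the unmodified diet and 7.64, 7.17 and 7.36 on glucose. Its midguts read 9.96, 10.35 and 10.36 (unmodified) and 9.91, 9.83 and 10.13 (glucose). The difference was 3.48 (SE 0.25, limma adjusted p 9.55e-08) and, on glucose, 2.57 (SE 0.25). Its neighbour Tsp42Eq had separate tissue groups too, as whole flies read 7.18, 6.58 and 7.10 (unmodified) and 7.25, 7.51 and 7.46 (glucose), and midguts 10.06, 9.92 and 10.26 (unmodified) and 10.02, 10.06 and 10.22 (glucose). The groups of Tsp42Eq were further apart than their spread on either diet, by 3.13 (SE 0.15) and 2.69 (SE 0.15).

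Tsp42Ec had the largest midgut excess on glucose. Its whole-fly values were 7.16, 6.88 and 7.55 on the unmodified diet and 7.25, 7.61 and 7.79 on glucose, its midgut values 10.49, 10.37 and 10.56 (unmodified) and 10.55, 10.53 and 10.74 (glucose). Midgut exceeded whole fly by 3.28 (SE 0.17) and 3.06 (SE 0.17, limma adjusted p 2.05e-08). For Tsp42Ed, next to it, whole flies read 8.76, 7.99 and 8.96 (unmodified) and 9.41, 9.22 and 9.64 (glucose), and midguts 11.21, 11.24 and 11.53 (unmodified) and 11.18, 11.17 and 11.38 (glucose). All midgut samples of Tsp42Ed lay above all whole-fly samples, with differences of 2.76 (SE 0.21) and 1.82 (SE 0.21).

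At the other end, Tsp66E had the largest tissue difference of the family. In the whole-fly samples Tsp66E read 8.27, 8.28 and 8.51 on the unmodified diet and 8.16, 7.93 and 7.77 on glucose. In the midguts it read 4.26, 2.42 and 2.57 on the unmodified diet and 3.64, 2.56 and 2.81 on glucose. Both midgut samples numbered 1 were the highest of their groups, as they were for the germline list, and the part of other tissue in these readings was not tested. The difference was -5.27 (SE 0.40, limma adjusted p 1.47e-07) and -4.95 (SE 0.40). Without the midgut samples numbered 1 the differences were -5.86 and -5.27. The midgut readings of Tsp66E other than those of samples 1 were below their array's median, where signals are near background and differences are compressed.

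Tsp74F was lower in all 6 midgut samples as well. Whole flies read 9.36, 9.25 and 9.58 on the unmodified diet and 9.11, 9.22 and 9.23 on glucose, midguts 5.83, 4.99 and 5.23 (unmodified) and 6.93, 5.73 and 5.82 (glucose). Midgut sample 1 was again the highest in both groups. The difference was -4.05 (SE 0.28) on the unmodified diet and -3.03 (SE 0.28) on glucose, and -4.29 and -3.41 without the samples numbered 1.

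Tsp96F and Tsp97E were the next lowest in midgut. Tsp96F read 8.01, 8.05 and 8.10 (unmodified) and 7.77, 7.53 and 7.70 (glucose) in whole flies, and 4.96, 4.31 and 4.10 (unmodified) and 4.08, 3.68 and 4.14 (glucose) in midgut, with differences of -3.60 (SE 0.19) and -3.70 (SE 0.19). Tsp97E, for which the gene table gives the synonym Tspan31, read 8.95, 9.18 and 9.20 (unmodified) and 8.40, 8.54 and 8.50 (glucose) in whole flies. Its midgut readings were 5.93, 5.43 and 5.75 (unmodified) and 5.68, 5.35 and 5.82 (glucose). This gene had the smallest adjusted p of the family in the tissue comparison on the unmodified diet, 2.48e-09 by limma, with a difference of -3.41 (SE 0.15), and -2.86 (SE 0.15) on glucose.

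Tsp5D, Tsp42Eh and Tsp42Ei completed the group that was lower in midgut. Tsp5D read 5.29, 4.99 and 4.94 (unmodified) and 5.20, 4.82 and 5.43 (glucose) in whole flies, and 2.37, 2.73 and 2.44 (unmodified) and 2.47, 2.65 and 2.46 (glucose) in midgut, where all 6 readings were below the array median. Tsp42Eh was at 5.36, 4.57 and 5.30 (unmodified) and 5.85, 5.29 and 6.14 (glucose) in whole flies, and at 3.03, 3.11 and 2.95 (unmodified) and 3.05, 3.27 and 3.36 (glucose) in midgut, also below the array median in all 6. Tsp42Ei stayed above that median in every library, at 7.67, 6.86 and 7.27 (unmodified) and 8.16, 7.55 and 8.11 (glucose) in whole flies and 5.44, 5.46 and 5.27 (unmodified) and 5.00, 5.45 and 5.74 (glucose) in midgut. The tissue groups did not overlap for any of the 3 genes. Differences on the unmodified diet were -2.55 (SE 0.16), -2.05 (SE 0.23) and -1.87 (SE 0.23). On glucose they were -2.62, -2.54 and -2.54.

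**Figure D2:**
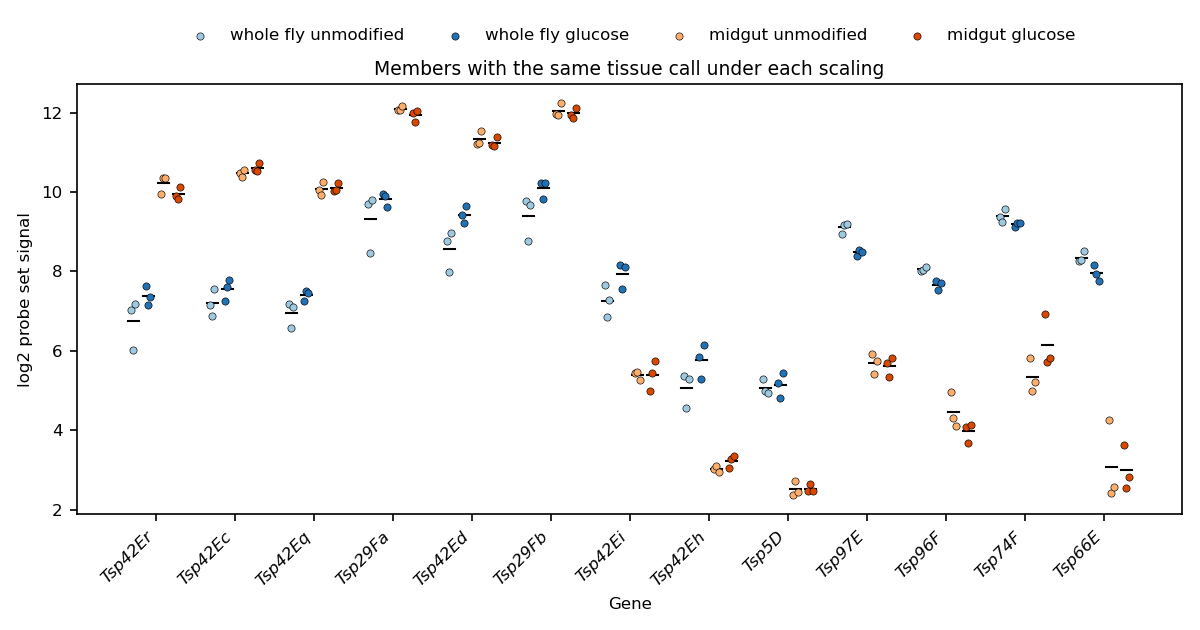
Log2 probe set signal (vertical axis) of the 13 tetraspanin genes with the same tissue call on both diets under all 3 scalings; points are the 3 samples of each group and black lines their means, and levels are to be read within a gene. For the 6 genes on the left every midgut sample lies above every whole-fly sample, and for the 7 on the right every one lies below.

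The Tsp42E genes are neighbours in the gene table, and their tissue differences varied along the run. In the order of their start positions the measured genes are Tsp42Ea, Tsp42Ec, Tsp42Ed, Tsp42Ee, Tsp42Ef, Tsp42Eg, Tsp42Eh, Tsp42Ei, Tsp42Ej, Tsp42Ek, Tsp42El, lbm, Tsp42En, Tsp42Ep, Tsp42Eo, Tsp42Eq and Tsp42Er. The genes that were higher in midgut under all scalings form 2 neighbouring pairs towards the ends, Tsp42Ec with Tsp42Ed and Tsp42Eq with Tsp42Er. Those that were lower, Tsp42Eh and Tsp42Ei, sit side by side between them, followed by Tsp42Ej at -1.26 (SE 0.23) and -1.98 (SE 0.23). The remaining 9 members of the run lay between -0.52 for Tsp42Ee and 0.78 for Tsp42Eg on the unmodified diet. The median was 0.06 over the 16 members of the run, with 6 called higher and 4 lower, and -0.42 over the 15 elsewhere, with 3 higher and 8 lower. Among all probe sets 14.9% were called higher and 40.6% lower on this diet. Tsp42Ek overlaps Tsp42Ej in the gene table, and Tsp42Eo overlaps Tsp42Ep.

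**Figure D3:**
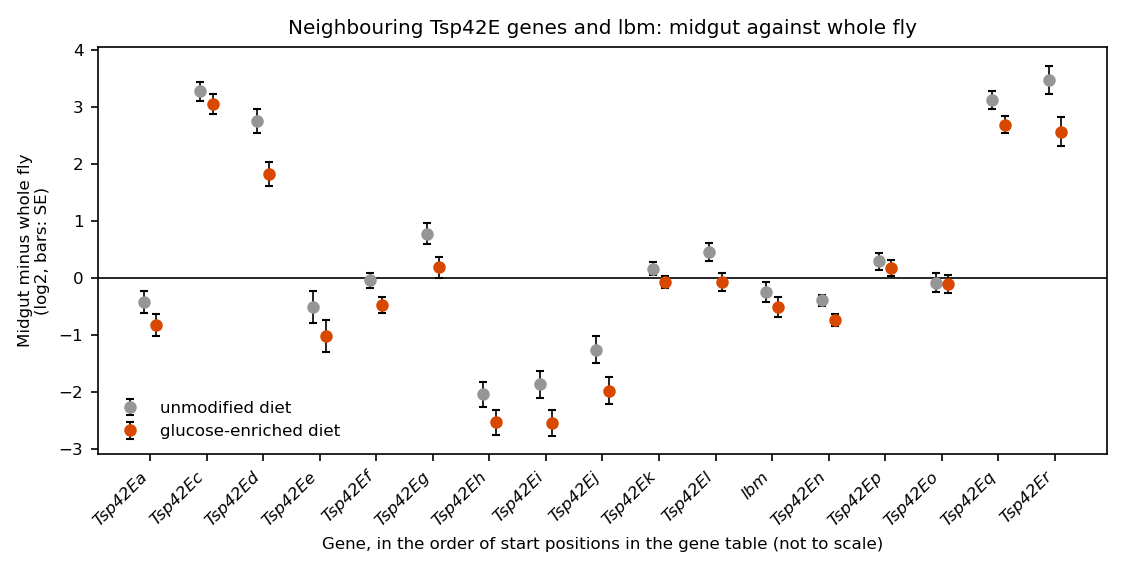
Midgut minus whole fly on the log2 scale (vertical axis; points are limma estimates, bars their SE, 3 samples a group) for the 16 Tsp42E members and lbm in the order of their start positions, not to scale, in grey on the unmodified and in orange on the glucose-enriched diet. Tsp42Ec, Tsp42Ed, Tsp42Eq and Tsp42Er stand between 1.82 and 3.48, and Tsp42Eh, Tsp42Ei and Tsp42Ej between -2.54 and -1.26.

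Tsp42Ej, known as sunglasses, encodes a lysosomal protein that takes part in the breakdown of rhodopsin in photoreceptors. In the whole-fly samples Tsp42Ej read 6.97, 6.86 and 6.62 on the unmodified diet and 7.77, 7.19 and 7.90 on glucose. In the midguts it read 5.93, 5.55 and 5.18 on the unmodified diet and 5.98, 5.68 and 5.25 on glucose. Midgut was lower on both diets, with no overlap and limma adjusted p-values of 0.000427 and 9.58e-06. After quantile normalization the difference on the unmodified diet was -0.11 and was not called (adjusted p 0.710). The 5 photoreceptor markers measured, of 8 listed, had a mean of 2.71 to 2.80 in midgut and 7.89 to 8.20 in whole flies on the unmodified diet. The part of eye tissue in the Tsp42Ej values was not tested.

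Tsp3A, Tsp26A and Tsp86D belong to the subgroup that carries the protease Kuzbanian, the fly ADAM10, to the cell surface and so promotes Notch activity. For Tsp3A, whole flies read 5.00, 4.87 and 4.91 on the unmodified diet and 5.01, 4.98 and 4.74 on glucose, and midguts 4.43, 4.22 and 4.36 (unmodified) and 4.33, 4.13 and 4.58 (glucose). The values were lower in midgut as deposited, with differences of -0.59 (SE 0.12) and -0.56 (SE 0.12), but higher after quantile normalization, at 0.46 and 0.50, and called each time. Tsp86D read 5.60, 5.81 and 5.92 (unmodified) and 5.64, 5.47 and 5.75 (glucose) in whole flies against 4.79, 4.84 and 5.28 (unmodified) and 4.50, 4.71 and 4.87 (glucose) in midgut. Its differences of -0.81 (SE 0.15) and -0.93 (SE 0.15) were not called under the other scalings and turned positive after quantile normalization. Tsp26A was below the array median in all 12 libraries, at 2.79, 2.77 and 3.09 (unmodified) and 3.11, 2.95 and 2.85 (glucose) in whole flies and 3.18, 2.79 and 2.87 (unmodified) and 2.73, 2.92 and 2.89 (glucose) in midgut, and was called on neither diet. No stable direction can be given for these 3 genes between tissues.

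Of the 14 members not yet described, Tsp42Ea, Tsp42Ee and Tsp42Ef were called lower in midgut on the glucose diet and not on the unmodified one, at -0.82, -1.02 and -0.47, but none of the 3 was after centring. On the unmodified diet Tsp33B, Tsp42Eg and Tsp42El were called higher, by 0.42, 0.78 and 0.45, and these calls held under both other scalings. Tsp42En and Tsp47F were lower on both diets, at -0.40 and -0.75 for Tsp42En and at -0.42 and -0.67 for Tsp47F, and neither was called lower on both under the other scalings. Tsp39D, Tsp42A, Tsp42Ek, Tsp42Eo, Tsp42Ep and Tsp68C were called on neither diet, like Tsp26A above. Their differences ran from -0.36 to 0.37, both ends being Tsp39D. Tsp33B, Tsp42A, Tsp42Ep, Tsp47F and Tsp68C stayed below the array median in all 12 libraries, like Tsp26A.

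The 3 other tetraspanins measured, outside the rule, lay on both sides. Tsp2A was 3.29 (SE 0.25) higher in midgut on the unmodified diet and 2.16 (SE 0.25) on glucose, and its junction partners Ssk and mesh were higher as well, by 3.17 and 2.42 on the unmodified diet. TM4SF was lower, at -1.74 and -2.01. Late bloomer (lbm), which lies inside the Tsp42E run and is known from the growth of motor nerve endings, was not called on the unmodified diet (-0.25, limma adjusted p 0.257) and called lower on glucose (-0.52), but higher on both after quantile normalization. Of the 7 integrin genes, 4 were called higher in midgut on the unmodified diet, the alpha subunits scb at 2.09 and mew at 1.32 and the beta subunits Itgbn at 1.57 and mys at 0.44, and 1 lower, the alpha subunit if at -0.39, which was called higher under both other scalings. Of 7 Notch release genes 3 were measured, kuz, Psn and pen-2, and all 3 were called lower on the unmodified diet as deposited. After centring Psn was called higher (0.28), and after quantile normalization Psn (0.53) and pen-2 (0.48) were. Of 11 genes of vesicle sorting and release 9 were measured, with 4 called lower and none higher, against 1 lower and 6 higher after centring.

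Diet was compared within each tissue, glucose minus unmodified. In whole flies a single member passed the test, Tsp97E, which was lower on glucose, while 15 of the 16 Tsp42E genes had a higher mean on glucose without passing. Tsp97E fell by 0.63 on the log2 scale (SE 0.11, limma adjusted p 0.0389), from 9.11 ± 0.14 to 8.48 ± 0.07 (SD, n = 3), and the groups did not overlap. That is 1 of 31 members, or 3.23%, against 3.11% of all probe sets and 1.8% in the same direction, so the count is at the background. The call was lost when any of unmodified samples 1, 2 and 3 or glucose samples 1 and 3 was left out, with limma adjusted p-values up to 0.134, and held without glucose sample 2 (0.0290). The difference itself stayed between -0.71 and -0.59.

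Tsp96F, Tsp66E, Tsp42A and Tsp74F had non-overlapping groups in the same direction as Tsp97E without passing the test. By limma, Tsp96F was at -0.39 (SE 0.10, adjusted p 0.0812) and Tsp66E at -0.40 (SE 0.13, adjusted p 0.128). Tsp42A, below the array median in all 12 libraries, was at -0.25 (SE 0.10, limma adjusted p 0.188), and Tsp74F at -0.21 (SE 0.12, limma adjusted p 0.364). The oocyte and germline list moved beside these genes: its mean was 8.34 to 8.60 in whole flies on the unmodified diet and 7.86 to 8.10 on glucose, and 3 of its 7 measured members were called lower. The follicle cell and eggshell list, 8 of 10 measured, ranged from 9.38 to 11.23 and from 7.93 to 10.47, with 1 called lower. The part of ovary RNA in the values of these tetraspanin genes was not tested.

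Of the Tsp42E members, 15 of 16 had a positive difference in whole flies, with a median of 0.49, against -0.02 for the 15 members elsewhere and 0.00 for all probe sets, of which 49.7% were positive. None of the 16 was called without a replicate block. An unadjusted p under 0.05 in the upward direction was reached by 11 of the 31 members, 10 of them in the run and Tsp29Fb outside it, which is 35.5% against 9.41% of all probe sets. Downward it was reached by 4, or 12.9% against 12%. Groups did not overlap for 8 members in the upward and 5 in the downward direction, or 25.8% and 16.1%, against 11.6% and 13.7% of all probe sets. Neighbouring genes of 1 family measured in the same 6 libraries are not independent, and these counts carry no test.

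The smallest p-values in the run belonged to Tsp42El and Tsp42Ej. Tsp42El read 6.60, 5.97 and 6.34 in whole flies on the unmodified diet and 7.02, 6.89 and 7.24 on glucose. All glucose samples lay above all unmodified ones, and the difference was 0.75 (SE 0.17, limma adjusted p 0.0590). For Tsp42Ej, whose readings are given above, the groups were also separate, with a difference of 0.81 (SE 0.19, limma adjusted p 0.0626). The photoreceptor markers moved in the same direction: their mean was 7.89 to 8.20 on the unmodified diet and 8.86 to 9.55 on glucose, and all 5 measured were called higher. Tsp42Ed had the largest difference of the family, 0.86 (SE 0.24, limma adjusted p 0.0934), which became 0.57 without unmodified sample 2.

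These counts moved with single libraries. Without unmodified sample 2, 6 members, not 11, had an unadjusted p under 0.05 upward, against 7.87% of all probe sets, and the median of the run was 0.33, with 15 of 16 positive, the exception being Tsp42Ep in place of Tsp42Eo. Without glucose sample 3 the number was 4, against 6.92%. Several marker lists also had a higher mean on glucose in whole flies. The mean of Ssk and mesh was 7.31 to 8.25 on the unmodified diet and 8.52 to 8.95 on glucose, and that of the hemocyte list 5.57 to 6.32 and 6.30 to 7.14, with 2 of 7 hemocyte genes called higher. Muscle markers had 8.74 to 9.14 and 9.23 to 9.63, with 1 of 6 called higher. Enterocyte markers had 10.10 to 10.82 and 10.34 to 10.73, with none of 8 called. Their group means moved in both directions, for example from 8.99 to 9.58 for LManII and from 9.87 to 9.47 for Npc2e. The 6 midgut-high genes all had a higher mean on glucose in whole flies, by 0.36 to 0.86, although none was called without a replicate block. Without unmodified sample 2 the range was 0.08 for Tsp29Fa to 0.57 for Tsp42Ed. Tsp29Fa, Tsp29Fb and Tsp42Er moved from 0.51 to 0.08, from 0.69 to 0.36 and from 0.64 to 0.28. The part of tissue make-up in the tetraspanin values was not tested.

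**Figure D4:**
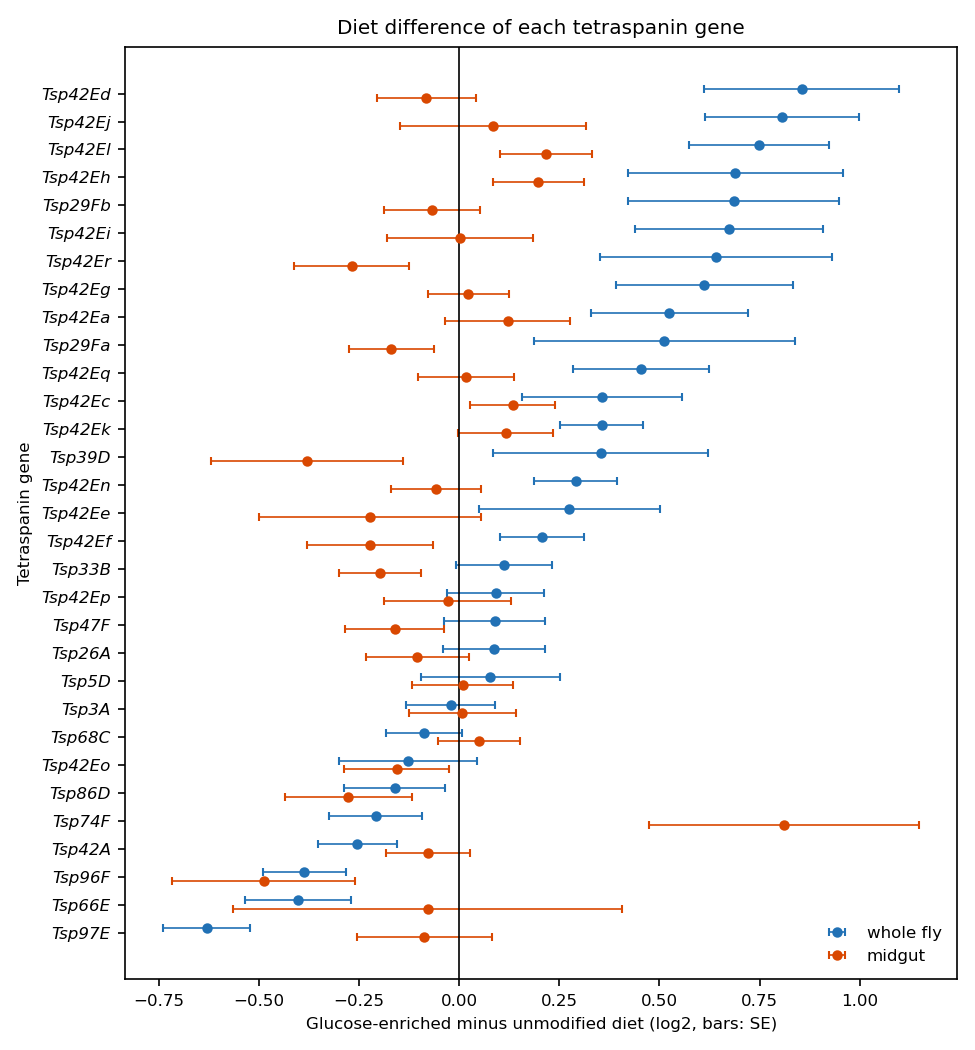
Glucose-enriched minus unmodified diet on the log2 scale (horizontal axis; points are limma estimates, bars their SE, 3 samples a group) for the 31 tetraspanin genes in whole fly (blue) and midgut (orange), ordered by the whole-fly value. In whole fly 15 of the 16 Tsp42E genes lie to the right of 0, while the midgut points lie between -0.49 and 0.81 with no gene called.

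In midgut no tetraspanin was called by limma, with or without a replicate block, and 0.00533% of all probe sets were without it. Without the block, 1 of 31 was higher and none lower at an unadjusted p under 0.05, against 3.47% and 2.73% of all probe sets. With the block, Tsp96F (unadjusted limma p 0.0252) and Tsp86D (0.0307) also fell below 0.05, both lower on glucose. The shares of all probe sets just given belong to the fit without the block and are no background for these p-values. Differences ran from -0.49 for Tsp96F to 0.81 for Tsp74F, with a median of -0.07 over the members and 0.00 over all probe sets. For the 6 midgut-high genes the 95% intervals, fitted without the block, all lay within 1 of 0 on the log2 scale, that is within a 2-fold change. Examples are -0.41 to 0.08 for Tsp29Fa, -0.11 to 0.38 for Tsp42Ec and -0.60 to 0.06 for Tsp42Er.

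Tsp74F had the smallest midgut p, with 0.81 (SE 0.34, unadjusted p 0.0433, limma adjusted p 0.789). Its groups overlapped, and glucose sample 1, which carried the most germline RNA, was the highest of the 6. Between samples with the same number, Tsp74F was higher on glucose each time (5.83 and 6.93, 4.99 and 5.73, 5.23 and 5.82). With the replicate block its difference of 0.81 had an SE of 0.12 and an unadjusted limma p of 0.000277. It was still not called after adjustment. Without both samples numbered 1 the difference was 0.67 (SE 0.14, limma adjusted p 0.804). Tsp96F, Tsp33B and Tsp42El followed in the fit without a block, at -0.49 (SE 0.23), -0.20 (SE 0.10) and 0.22 (SE 0.11). Without both samples numbered 1 these differences were -0.29 (SE 0.19), -0.16 (SE 0.13) and 0.28 (SE 0.15). Tsp33B read 3.19, 3.32 and 3.22 on the unmodified diet and 2.93, 3.15 and 3.07 on glucose in midgut, and 2.68, 2.99 and 2.82 (unmodified) and 2.80, 3.02 and 2.99 (glucose) in whole flies. Tsp42El read 6.80, 6.69 and 6.78 (unmodified) and 6.88, 6.86 and 7.17 (glucose) in midgut. In both genes the midgut diet groups were separate but differed by less than 0.25. Groups did not overlap for 3 of 31 members, 1 higher and 2 lower, or 3.23% and 6.45%, against 6.36% and 5.34% of all probe sets.

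Whether diet acted differently in the tissues was tested as midgut diet difference minus whole-fly diet difference over all 12 arrays. Without a block no member was called by limma, against 0.0426% of all probe sets, and 9 of 31 had an unadjusted p under 0.05, 7 lower and 2 higher, or 22.6% and 6.45%, against 6.28% and 8.81% of all probe sets. The value was negative for all 16 genes of the Tsp42E run, with a median of -0.46, where 49.1% of all probe sets were positive. After centring of the arrays it was negative for 15 of 16. The largest negative value was that of Tsp42Ed, -0.94 (SE 0.30, unadjusted p 0.00831, limma adjusted p 0.173). Without whole-fly unmodified sample 2 the value of Tsp42Ed was -0.65 (SE 0.20, limma adjusted p 0.271). The largest negative value was then that of Tsp42Ej, -0.74 (SE 0.36, limma adjusted p 0.484). Tsp74F and Tsp97E lay on the other side, at 1.02 (SE 0.40, adjusted p 0.254) and 0.54 (SE 0.21, adjusted p 0.250), both by limma. With the sample numbers as a replicate block within each tissue, which the data bear out in midgut but not in whole fly, Tsp42Ed (limma adjusted p 0.0309) and Tsp74F (limma adjusted p 0.0245) were called, beside 3.99% of all probe sets. The test shares the whole-fly and midgut samples of the diet comparisons and repeats their values.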

How the data were processed

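Signals were measured in 12 samples on single-colour Affymetrix arrays. The authors' deposited values are log2 signals, 1 per probe set and array, made with Affymetrix Expression Console, per the submitters' processing notes. Nothing used here gives its version or summarisation method, or says whether whole-fly and midgut arrays were normalized jointly. Of 18952 probe sets, 183 controls were left out and 18769 tested. Of the tested probe sets, 13647 carry 1 gene symbol in the platform annotation, 402 several and 4720 none. Dim probe sets sit near background, which compresses differences.

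Tissue differences (midgut minus whole fly) and the difference of the diet effects were fitted with limma 3.58.1 in R 4.3.3 over all 12 arrays, and diet differences (glucose minus unmodified) over the 6 arrays of a tissue. Tests were two-sided, with the Benjamini-Hochberg adjustment taken over the 18769 probe sets. For 1 gene with 3 samples a group, the smallest p of an exact permutation test is 0.1. Procedures were tested on simulated data. The members, the gene lists and the rule for named genes were chosen with earlier results of these data known. Values in every sample are given for up to 6 called members with the largest difference in each direction between tissues, for the members with the smallest p in each diet comparison (up to 4) and in the difference of diet effects (up to 3), and for Tsp3A, Tsp26A, Tsp86D and Tsp42Ej. Tsp42Ea and other members are given by range and count.

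All 31 members matched a RefSeq gene table (assembly Release 6 plus ISO1 MT) by gene ID, and it served only for names and the order of neighbours. No coordinates or sequences are given, as no genome build is named for the deposited values. In midgut, samples with the same number deviated together over all probe sets (r = 0.39, 0.31 and 0.36), so the numbers were taken to pair them. That pairing comes from the data, not from the labels. The main midgut diet fits left it out, and a replicate block was run as an alternative. In whole fly the values were 0.20, 0.31 and -0.01, and no pairing was assumed. Alternatives were another scaling, a filter on dim probe sets, another variance prior, array weights, a replicate block, other arrays in the fit, a 2-fold minimum, the mean of a gene's probe sets, leaving out each sample, and, chosen after seeing the data, leaving out both midgut samples numbered 1.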

Additional observations from a re-analysis of the deposited data

How the results depend on the processing

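The tissue counts kept within 1.5 times under each alternative run, with 20 to 22 members called on the unmodified diet and 21 on glucose when single libraries were left out, but the split by direction moved with the scaling as given above. For members called as deposited or under the alternative, centring the arrays turned the unmodified-diet difference to 0.021 for Tsp3A, 0.51 for Tsp42A, 0.57 for Tsp42Ef, 0.22 for Tsp42En, 0.53 for Tsp42Eo, 0.19 for Tsp47F and 0.39 for Tsp68C. Quantile normalization turned it to 0.46 for Tsp3A, 0.74 for Tsp42Ef, 0.14 for Tsp42En, 0.46 for Tsp42Eo and 0.40 for Tsp86D. On glucose, centring gave 0.55 for Tsp26A, 0.11 for Tsp3A, 0.20 for Tsp42Ef, 0.60 for Tsp42Ek, 0.60 for Tsp42El, 0.57 for Tsp42Eo, 0.00183 for Tsp47F and 0.59 for Tsp68C, and quantile normalization gave 0.72 for Tsp39D, 0.50 for Tsp3A, 0.21 for Tsp42Ef, 0.75 for Tsp42Ek, 0.76 for Tsp42El and 0.23 for Tsp86D. Where neither value was called, signs turned for Tsp42Ea (0.19 centred, 0.088 quantile) and Tsp42Ee (0.096 centred) on the unmodified diet and on glucose for Tsp39D (0.31 centred), Tsp26A, Tsp42Eo and Tsp68C (0.098, 0.38 and 0.024 quantile). In whole fly the diet count of 1 became 2 with a trended and robust prior, 2 after quantile normalization, 3 with array weights, 3 with all 12 arrays in the fit and 0 with a 2-fold minimum, and ranged from 0 to 3 when single libraries were left out. With a replicate block 9 members were called, beside 9.12% of all probe sets in either direction. Tsp97E was lower. The 8 higher were Tsp29Fb and, in the Tsp42E run, Tsp42Ea, Tsp42Ed, Tsp42Eg, Tsp42Eh, Tsp42Ei, Tsp42Ej and Tsp42El. The same block gave 2 calls for the difference of diet effects, Tsp42Ed and Tsp74F, beside 3.99%. The whole-fly samples share only a number. In midgut the block changed no call of a member, though it brought the unadjusted limma p of Tsp96F and Tsp86D under 0.05. The midgut count was 0 under every alternative run, and the count for the difference of diet effects was 0 whichever library was left out. A 2-fold minimum can only remove calls. Each member has 1 probe set, so averaging probe sets left its values unchanged, and neither alternative bears on these counts of 0. Beyond the settings' own construction, the cause was not tested. With 3 arrays a group and dim probe sets near background, small changes could not be resolved.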
